A study of Mus musculus with 4 samples.

Results

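CTCF peaks were described at 31 mouse genes that drive or restrain cell division, out of 21887 protein-coding genes on chromosomes 1 to 19, X and Y. The genes were chosen by name, as cyclins and their kinases, inhibitors and G1 regulators, replication factors and mitotic genes, and all 31 were found in the mm10 gene table. The deposited peaks came from a chromatin immunoprecipitation and sequencing (ChIP-seq) study of embryos at embryonic day 13.5, with 1 CTCF library from the medial ganglionic eminence (MGE) and 1 CTCF library from the telencephalon. Each tissue also had an input library made without antibody, not analysed here. No genotype, strain or animal number was given in the labels. The dissection note names the MGE for every sample, and whether the telencephalon sample contained the MGE was not stated.

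CTCF binds DNA through zinc fingers and stops the loop extrusion carried out by cohesin, so that pairs of its sites often bound chromatin loops and insulate genes from neighbouring enhancers. The MGE and the other parts of the embryonic telencephalon hold dividing progenitors that line the ventricle. In these cells D cyclins with Cdk4 or Cdk6 phosphorylate the retinoblastoma protein Rb1, which releases E2F factors, E2F factors switch on cyclin E and replication genes, and cyclin B with Cdk1 drives mitosis. Cyclins E and B are made and destroyed in step with the cycle. Peak lists carry no expression, so neither the dividing state of the cells nor the tissue labels could be checked against markers.

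The MGE list had 25625 peaks on these chromosomes and the telencephalon list had 31886. Both hold positions alone, with no score, read count or p-value, and the depth of the libraries is unknown. With 1 library per tissue there was no replicate, no difference between tissues was tested, and every comparison describes these libraries only. Library kits differed between the tissues, and the track names of the lists carry different tags (p01 for MGE and p001 for telencephalon) that may stand for calling thresholds. The telencephalon track name also carries the tag e14, which the labels do not explain and which may give another age than the labelled stage. Tissue, kit and any difference in calling or age cannot be told apart. Shared means an overlap of 1 bp or more with the other list. Intervals are exact (Clopper-Pearson, 95%), treat genes or peaks as independent and cover counting error only.

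Windows of 3 kinds were used around each gene. A gene-end peak overlapped the 1 kb on either side of an annotated end, a gene-body peak overlapped the gene itself, and the widest window held the gene and 50 kb on each side. Lower and upper refer to genome coordinates on mm10, because the gene table gives no strand. Strand and transcription starts came from RefSeq promoter sequences on GRCm38.p6, which held entries for 24 of the 31 genes.

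Cell cycle genes carried CTCF near them in almost every case, but few had it at their ends. In the MGE list 4 of 31 genes had a gene-end peak (12.9%, interval 3.63 to 29.8%), against 12.1% of all protein-coding genes. In the telencephalon list 6 of 31 had one (19.4%, 7.45 to 37.5%), against 19.3% of all protein-coding genes. Both shares were close to those of genes in general. Ccna2, Trp53, Mcm5 and Rrm2 had one in each list (4 of 31, beside 10.5% of protein-coding genes). Mcm3 and Bub1 had one in the telencephalon list alone (2 of 31, beside 8.79%), and 0 of 31 had one in the MGE list alone (beside 1.58%). The remaining 25 genes (beside 79.1%), among them Ccnd1, Ccnd2, Cdk1, Pcna and Mki67, had no gene-end peak in either list.

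Within 50 kb nearly all of the genes had a peak. The widest window held an MGE peak for 30 of 31 genes (96.8%, 83.3 to 99.9%), against 80.3% of protein-coding genes, and a telencephalon peak for 30 of 31 (96.8%, 83.3 to 99.9%), against 82.8%. The exceptions were Mcm3 in the MGE list and Mcm4 in the telencephalon list. A shared peak was present for 27 of 31 genes (87.1%, 70.2 to 96.4%) in each list, against 68.2% of protein-coding genes in each. Ccna2, Ccnb2, Mcm3 and Mcm4 had none. The median length of the 31 genes was 13504 bp, against 17169 bp for all protein-coding genes, and a median of 2 other protein-coding genes lay in their windows, against 3. The median number of peaks per window was 2 in the MGE list and 3 in the telencephalon list, the same as for all protein-coding genes. The mean was 2.58 in MGE and 3.65 in telencephalon, against 2.16 and 3.26 for all protein-coding genes.

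**Figure D1:**
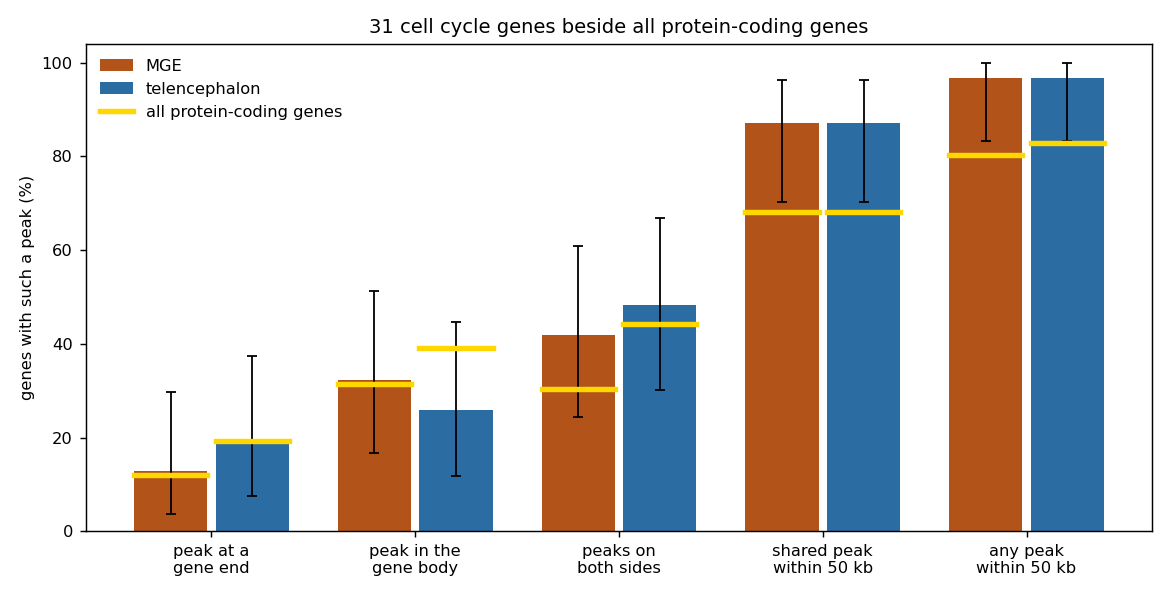
Share of the 31 cell cycle genes with each kind of peak, in percent, in the MGE list and the telencephalon list. Bars are the genes, error bars exact 95% intervals and gold lines all protein-coding genes: gene-end shares of 12.9% and 19.4% lie at the gold lines of 12.1% and 19.3%, and the shares with any peak within 50 kb, 96.8% in both lists, lie above 80.3% and 82.8%.

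No CTCF peak was listed over the transcription starts of the 24 genes that could be placed. The window used ran from 250 bases before to 50 bases after an annotated start. None of the 24 genes with a promoter sequence had a peak overlapping this window in either list. Of all 27025 genes with such a window, protein-coding or not, 4.34% had an overlap in the MGE list and 7.33% in the telencephalon list. Of the 118 further pathway genes described below, 96 had such a window. Among these 96, 4 had an overlap in the MGE list (4.17%) and 12 in the telencephalon list (12.5%). At such shares the 24 genes are too few to show a lack of peaks over starts. A peak lay within 1 kb of an annotated start in MGE for 4 of these 24 (16.7%, 4.74 to 37.4%). In telencephalon this held for 5 of 24 (20.8%, 7.13 to 42.2%). Of protein-coding genes with a promoter sequence 8.93% and 15.2% had such a peak, and both intervals cover these shares. Those genes were Cdk6, Trp53, Mcm5 and Rrm2 in both lists and Bub1 in the telencephalon list. Distances from the start to the nearest edge of the peak were 450 bp for Cdk6 in MGE and 452 bp in telencephalon, and 692 bp and 684 bp for Trp53. They were 466 bp and 612 bp for Mcm5, and 274 bp and 298 bp for Rrm2. The Bub1 peak of the telencephalon list lay 988 bp from the start, and the nearest MGE peak lay 13599 bp from it.

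Because these are the starts nearest to CTCF, their promoter windows are shown 5′ to 3′ on the strand of the gene (RefSeq, GRCm38.p6). These 5 were chosen after their distances were seen, since no window was overlapped by a peak. Capitals mark a match to the E2F-like letters TTTNNCGC, searched on both strands. Cdk6 lies on the plus strand (chr5:3343643-3343942), Trp53 on the plus strand (chr11:69580109-69580408), Mcm5 on the plus strand (chr8:75109259-75109558), Rrm2 on the plus strand (chr12:24708004-24708303) and Bub1 on the minus strand (chr2:127831810-127832109).
Cdk6: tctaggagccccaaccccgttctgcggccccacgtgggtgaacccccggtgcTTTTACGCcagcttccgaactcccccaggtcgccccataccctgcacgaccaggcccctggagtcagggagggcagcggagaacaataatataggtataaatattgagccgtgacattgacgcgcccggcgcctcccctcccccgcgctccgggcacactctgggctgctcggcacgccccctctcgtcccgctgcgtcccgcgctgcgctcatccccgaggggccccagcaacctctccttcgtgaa
Trp53: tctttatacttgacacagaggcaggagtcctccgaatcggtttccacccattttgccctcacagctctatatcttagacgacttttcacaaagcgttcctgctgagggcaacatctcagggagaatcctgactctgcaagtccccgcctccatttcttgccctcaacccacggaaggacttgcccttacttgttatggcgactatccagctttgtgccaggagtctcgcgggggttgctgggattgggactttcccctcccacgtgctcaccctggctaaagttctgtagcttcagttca
Mcm5: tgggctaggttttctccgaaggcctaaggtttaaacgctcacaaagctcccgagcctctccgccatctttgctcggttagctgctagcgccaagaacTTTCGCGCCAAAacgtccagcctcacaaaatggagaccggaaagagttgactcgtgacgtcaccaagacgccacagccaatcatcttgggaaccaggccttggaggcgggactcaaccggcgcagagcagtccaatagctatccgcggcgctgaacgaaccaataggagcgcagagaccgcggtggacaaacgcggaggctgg
Rrm2: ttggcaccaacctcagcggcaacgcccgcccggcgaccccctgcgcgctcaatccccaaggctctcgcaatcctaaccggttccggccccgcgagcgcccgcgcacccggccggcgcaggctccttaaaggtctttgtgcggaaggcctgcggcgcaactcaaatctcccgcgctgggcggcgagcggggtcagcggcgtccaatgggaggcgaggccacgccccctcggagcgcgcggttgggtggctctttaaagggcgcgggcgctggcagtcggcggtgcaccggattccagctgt
Bub1: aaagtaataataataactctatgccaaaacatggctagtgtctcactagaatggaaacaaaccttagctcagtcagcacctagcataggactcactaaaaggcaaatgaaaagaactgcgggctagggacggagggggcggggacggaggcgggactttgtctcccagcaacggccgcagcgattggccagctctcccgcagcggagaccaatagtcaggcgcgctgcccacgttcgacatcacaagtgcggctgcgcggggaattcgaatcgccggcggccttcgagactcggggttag

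Mcm5 held a pair of overlapping E2F-like matches on opposite strands, TTTCGCGC at -153 to -146 and TTTGGCGC read from the other strand at -149 to -142, with bases counted from the annotated start at 0. Cdk6 held TTTTACGC at -198 to -191. The windows of Trp53, Rrm2 and Bub1 held no match. Over all 24 genes the E2F-like letters occurred in 8 (33.3%), namely Cdk1, Cdk2, Cdk6, Cdkn2a, Mcm3, Mcm5, Mcm6 and Mcm7, against 5.93% of all genes with a promoter window. TTTGAA, the letters of the cell cycle genes homology region (CHR) known from promoters of mitotic genes, occurred in 7 of 24 (29.2%), against 20.2% of all genes. Those 7 were Aurka, Ccnb2, Cdk1, Mcm2, Mki67, Plk1 and Top2a. The CTCF core consensus occurred in 0 of 24 windows, exactly or with 1 mismatch, against 0.636% and 5.05% of all genes. Cell cycle promoters were richer in bases G and C (median 60.3%, against 53.0% over all windows) and in CpG (median 24 per window, against 7), and the part of base composition in the motif shares was not tested. All genes in these comparisons were the 27025 with a promoter window, of which 17492 were protein-coding. The background of the motif and base shares, and of the peaks overlapping promoter windows, is therefore mixed. A match is a run of letters and not a measured site.

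A gene-body peak was found for 10 of 31 genes in the MGE list (32.3%, 16.7 to 51.4%), against 31.4% of protein-coding genes, and for 8 of 31 in the telencephalon list (25.8%, 11.9 to 44.6%), against 39.1%. Ccnd1, Ccnd2, Cdk6, Cdkn1a, Rb1, Mcm2 and Rrm2 had one in both lists. These 7 genes compare with 27.0% of protein-coding genes with a gene-body peak in both lists. In each of them at least 1 of the peaks was shared. Ccnb2, Mki67 and Top2a had one in MGE alone (3 of 31, beside 4.45% of protein-coding genes), and Ccna2 in telencephalon alone (1 of 31, beside 12.1%). Of the gene-body peaks, 10 of 14 were shared in MGE (71.4%, 41.9 to 91.6%), against 65.0% over all protein-coding gene bodies, and 10 of 13 in telencephalon (76.9%), against 46.8%. The telencephalon interval starts at 46.2% and so covers the background, and its 13 peaks lie in 8 genes.

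Counted as peaks, the windows of the 31 genes held 80 MGE peaks and 113 telencephalon peaks, and no peak fell in the windows of more than 1 gene. In the MGE list 64 of 80 were shared (80.0%, 69.6 to 88.1%), against 68.1% of all peaks within 50 kb of a protein-coding gene. In the telencephalon list 63 of 113 were shared (55.8%, 46.1 to 65.1%), against 48.5%. The lists differ in length, which by itself makes the share higher in the shorter list. Neighbouring peaks of a locus are not independent, so that these intervals are too narrow. More telencephalon than MGE peaks were found at 17 genes, equal numbers at 10 and more MGE than telencephalon peaks at 4, which were Cdkn1b, Cdkn2a, Rb1 and Mcm4. At Ccnb1, Cdkn1a, Pcna and Aurka every peak of both lists was shared. Neither of these tallies was made over all protein-coding genes. The telencephalon list is the longer, and all protein-coding genes had a mean of 3.26 telencephalon and 2.16 MGE peaks per window. Of the peaks outside the genes themselves, 50 of 66 in MGE and 72 of 100 in telencephalon lay in or near another annotated gene. Near means within 1 kb of an end. The same share was not counted around all protein-coding genes, so whether it is particular to the 31 genes is unknown.

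**Figure D2:**
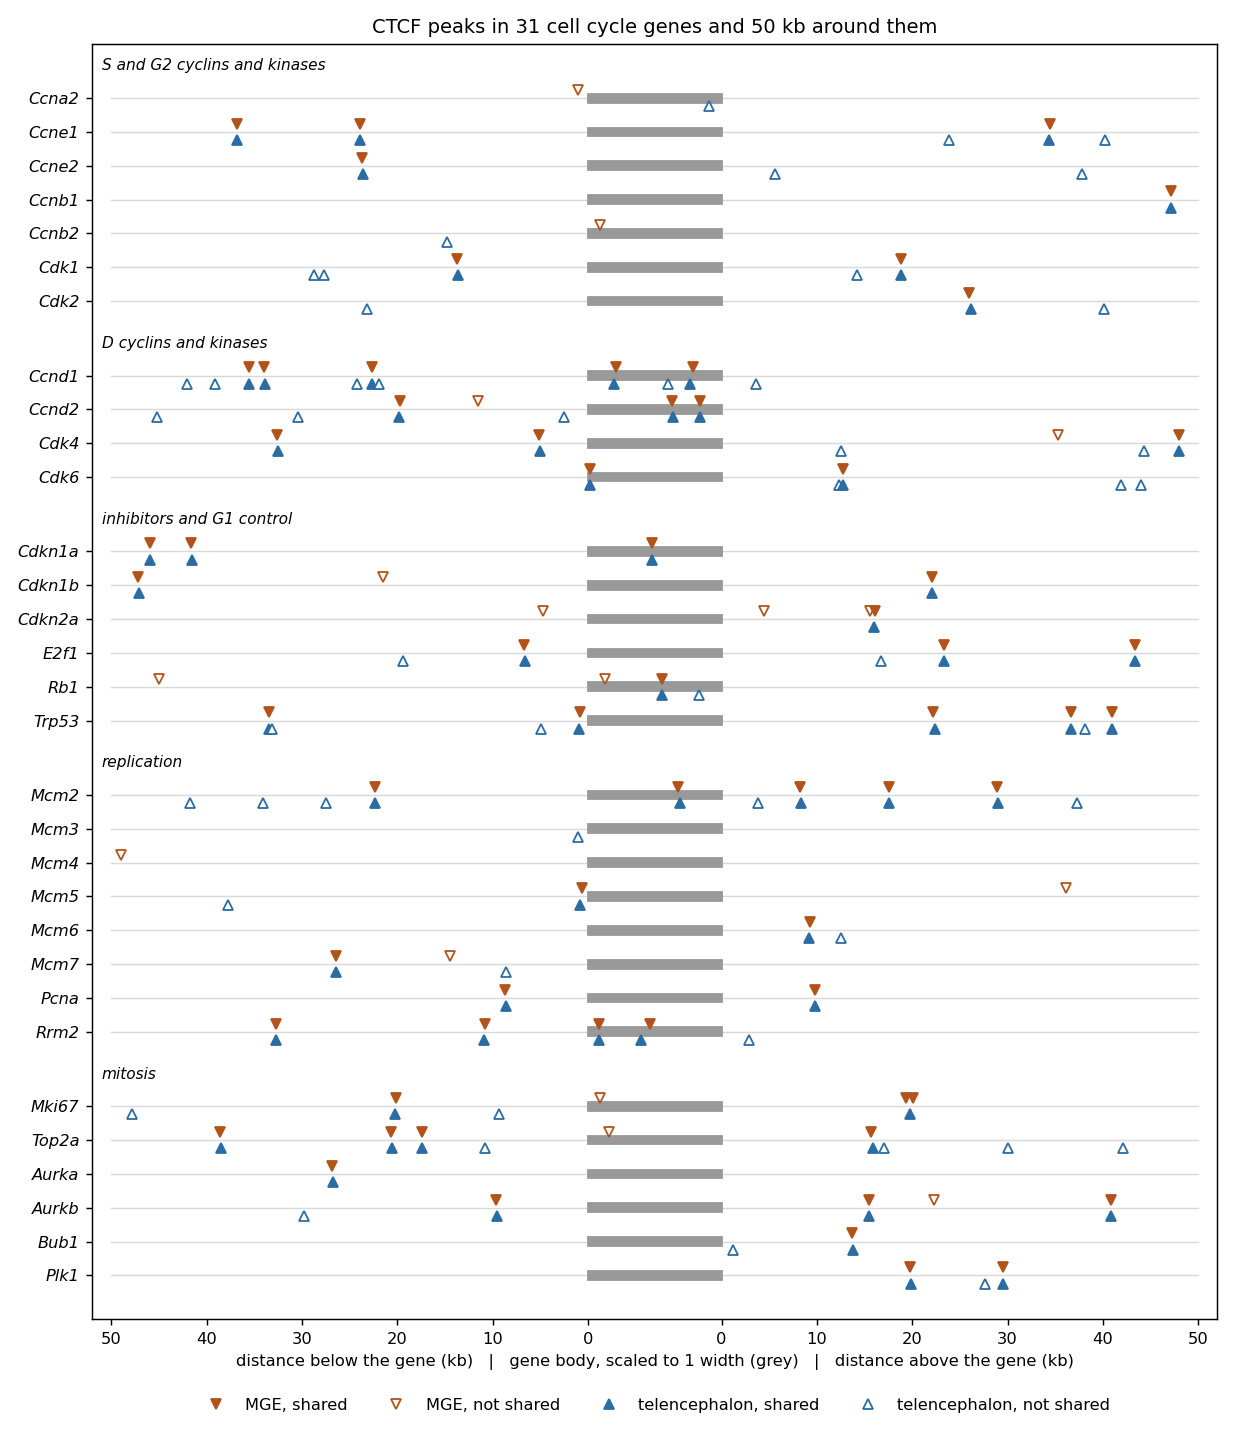
CTCF peaks at the 31 cell cycle genes, with the distance from the gene in kb on the x axis below (left) and above (right) the gene and all gene bodies drawn at equal width. Triangles are peak midpoints of the MGE list (above each line) and the telencephalon list (below it), filled where shared: 64 of 80 MGE and 63 of 113 telencephalon triangles are filled.

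Ccnd1 and Ccnd2 were the D cyclin genes among the 31, and D cyclins carry growth signals into the cycle. With the kinase genes Cdk4 and Cdk6 they had a mean of 3.75 peaks per gene in MGE, against 2.16 over all protein-coding genes. In telencephalon their mean was 6.75, against 3.26. Without Ccnd1 the means were 3.33 in MGE and 5.33 in telencephalon. The inhibitors and G1 regulators had a mean of 3.5 in each list. The 4 genes of the D cyclin group had 15 MGE peaks, of which 13 were shared, and 27 telencephalon peaks, of which 13 were shared. Ccnd1 (cyclin D1, chr7:144929931-144939831) had 5 MGE and 11 telencephalon peaks, and no other of the 31 genes had as many in the telencephalon list. All 5 MGE peaks were shared. Inside Ccnd1 lay MGE peaks at chr7:144931814-144932214 and chr7:144937433-144938034, matched by telencephalon peaks at chr7:144931698-144932086 and chr7:144937252-144937781. Between them the telencephalon list had a peak of 562 bp with no MGE partner (chr7:144935611-144936172), 1261 bp from the nearest MGE peak. Below Ccnd1 both lists had a peak near Fgf15, a signalling factor gene, 33849 bp from Ccnd1 in MGE and 33809 bp in telencephalon. Of the 6 unshared telencephalon peaks at Ccnd1, those of 150, 157 and 161 bp fell below percentile 10 of width in their list.

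Ccnd2 (cyclin D2, chr6:127125162-127152188) had 4 peaks in MGE, 3 of them shared, and 6 in telencephalon, 3 of them shared. Its gene-body peaks were of 370 and 401 bp in MGE and of 836 and 381 bp in telencephalon. The other shared peak lay in Tigar, 19620 bp below Ccnd2 in MGE and 19701 bp in telencephalon. Cdk6 (chr5:3341004-3531008), the longest of the genes at 190005 bp, had a single gene-body peak in each list. It lay at chr5:3344343-3344629 in MGE and chr5:3344345-3344690 in telencephalon, 450 and 452 bp from the start given with the promoter sequence (chr5:3343893). That start lies inside the lower end of the gene table, so the peak was not a gene-end peak. The rest of the gene held no listed peak. Cdk4 (chr10:127063535-127067288), the shortest at 3754 bp, had none inside. Its nearest peak was shared and lay in Marchf9, at 4908 bp in MGE (chr10:127058216-127058627) and at 4755 bp in telencephalon (chr10:127058177-127058780).

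Cyclins E, A and B and the kinases Cdk1 and Cdk2 act in S phase and mitosis. Their genes had a mean of 1.43 peaks in MGE and 2.71 in telencephalon, and all 7 had a peak within 50 kb in both lists. Together they had 10 peaks in MGE, 8 of them shared, and 19 in telencephalon, 8 of them shared. Only Ccna2 and Ccnb2 had a peak inside, each in 1 list. Ccna2 (cyclin A2, chr3:36564865-36573038) had 1 peak in each list, at opposite ends. The MGE peak lay 931 bp below the gene (chr3:36563691-36563934), in Exosc9, and was 244 bp wide, the narrowest width of that list. The telencephalon peak was 364 bp wide and lay inside the upper end (chr3:36572098-36572461), next to an end of Bbs7, and 8164 bp separated it from the MGE peak. Ccnb2 (cyclin B2, chr9:70407689-70421554) likewise had 1 peak in each list and none shared. Its MGE peak was inside the gene, its midpoint 12584 bp downstream of the start (chr9:70408823-70409117), and its telencephalon peak lay 14654 bp below the gene.

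Ccnb1 (cyclin B1, chr13:100778739-100786486) had a single shared peak at a distance in both lists, in Slc30a5, at 46956 bp in MGE and 46991 bp in telencephalon. Cdk1 (chr10:69335146-69352912) lay between shared peaks 13574 bp below and 18571 bp above it in MGE, at 13470 and 18582 bp in telencephalon. The telencephalon list had 3 more peaks there, 1 of them 625 bp wide. Ccne1 (cyclin E1, chr7:38097984-38107490) had 3 shared peaks in each list, the nearest at 23780 bp in MGE and 23779 bp in telencephalon, and a telencephalon peak of 745 bp without a partner (chr7:38130967-38131711), the widest unshared peak at any of the genes. Ccne2 (cyclin E2) and Cdk2 each had 1 MGE peak, which was shared, and 3 telencephalon peaks, 1 of them shared.

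The inhibitors and G1 regulators had equal totals, with 21 peaks in each list and 15 shared in each. Cdkn1a, which encodes the p53 target p21, had 3 shared peaks in each list and no others. Its gene-body peak lay 1862 bp downstream of the nearest annotated start in MGE (chr17:29095398-29095865) and 1888 bp downstream in telencephalon (chr17:29095449-29095865), by peak midpoint. Trp53, which encodes p53 itself (chr11:69580348-69591873), had 5 peaks in MGE, all shared, and 8 in telencephalon, 5 of them shared. The peak at its lower end overlapped the neighbouring gene Wrap53 in MGE (chr11:69579313-69579667) and in telencephalon (chr11:69579182-69579675). Cdkn1b (the inhibitor p27) had 3 MGE and 2 telencephalon peaks. The nearest in MGE was an unshared peak 21378 bp below the gene, and the nearest in telencephalon a shared peak 21914 bp above it. E2f1 lay between shared peaks 6548 bp below and 23137 bp above it in MGE, at 6557 and 23139 bp in telencephalon.

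Cdkn2a, which encodes the inhibitors p16 and p19Arf (chr4:89274473-89294619), differed most between the lists in favour of MGE, with 4 MGE peaks and 1 telencephalon peak. MGE peaks of 288 and 293 bp lay on either side of the gene at 4534 and 4263 bp (chr4:89269652-89269939 and chr4:89298882-89299174), and neither had a telencephalon partner. The shared peak lay at the adjacent inhibitor gene Cdkn2b (chr4:89310450-89310942 in MGE and chr4:89310419-89310800 in telencephalon). A further MGE peak of 244 bp stood 93 bp from that telencephalon peak. Rb1 (chr14:73192858-73325951) had 2 gene-body peaks in each list, of which 1 was shared (chr14:73266178-73266448 in MGE and chr14:73266272-73266483 in telencephalon). Its unshared gene-body peaks were 248 bp wide in MGE and 515 bp wide in telencephalon.

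Replication genes varied widely. Together the 8 genes had 17 peaks in MGE, 14 of them shared, and 24 in telencephalon, 14 of them shared. The Mcm2 to Mcm7 proteins form a ring, the replicative helicase, but their genes lie apart and had unlike surroundings. Mcm2 (chr6:88883474-88898780) had 5 MGE peaks, all shared, and 10 telencephalon peaks. Its gene-body peak was 308 bp wide in MGE (chr6:88893658-88893965) and 782 bp wide in telencephalon (chr6:88893591-88894372), where it stood at percentile 99.2 of width. Mcm5 (chr8:75109468-75128439) had a shared peak just upstream, at chr8:75108537-75109043 in MGE and chr8:75108438-75108897 in telencephalon, 425 and 571 bp from the gene.

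Mcm6 and Mcm7 had 1 shared peak each, 9110 bp from Mcm6 in MGE and 8981 bp in telencephalon, and 26262 bp from Mcm7 in MGE and 26289 bp in telencephalon. Mcm3 (chr1:20802966-20820312) and Mcm4 (chr16:15623897-15637400) had no shared peak in their windows. The nearest MGE peak to Mcm3 was 117946 bp away, whereas a telencephalon peak of 318 bp lay 916 bp below the gene, on the side away from its start (chr1:20801733-20802050). For Mcm4 an MGE peak of 244 bp lay 48846 bp away against 200829 bp to the closest telencephalon peak. Pcna, the sliding clamp of DNA polymerases (chr2:132249286-132253180), was flanked by shared peaks on both sides. They lay 8523 bp below it, at Tmem230, and 9613 bp above it, in Cds2, in MGE, and 8299 and 9599 bp away in telencephalon, and there were no others.

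Rrm2, the small subunit gene of ribonucleotide reductase, which makes deoxynucleotides (chr12:24708254-24714146), is 5893 bp long and held 2 shared peaks in each list. Those beside the start lay at chr12:24708528-24708972 in MGE and chr12:24708552-24708885 in telencephalon. The others, further into the gene, were 525 bp wide in MGE (chr12:24710737-24711261) and 967 bp wide in telencephalon (chr12:24710117-24711083), with midpoints 399 bp apart. All 4 MGE peaks in the window were shared, and the telencephalon list had 1 more 2651 bp above the gene.

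Mitotic genes had 17 MGE peaks, of which 14 were shared, and 22 telencephalon peaks, of which 13 were shared. Mki67, which encodes the proliferation antigen Ki-67 (chr7:135689784-135716450), and Top2a, the topoisomerase that untangles sister chromatids (chr11:98992947-99024199), showed a similar arrangement. Each had an unshared MGE peak near the lower coordinate end of the gene body, far from the start, and shared peaks on both sides outside it. The Mki67 peak was 475 bp wide (chr7:135691881-135692355), at percentile 92.9 of width in the MGE list, and no telencephalon peak lay closer to it than 11324 bp. The Top2a peak was 391 bp wide (chr11:98997655-98998045), and no telencephalon peak lay closer to it than 15288 bp. Above Mki67 a telencephalon peak of 1213 bp (chr7:135735622-135736834), the widest at any of the genes, overlapped 2 separate MGE peaks of 387 and 270 bp. Around Top2a shared peaks lay in and beside Rara, a retinoic acid receptor gene, and at Igfbp4, an inhibitor of insulin-like growth factors.

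The mitotic kinase genes Aurka, Aurkb, Plk1 and Bub1 had no peak inside. Of all protein-coding genes 31.4% had a gene-body peak in MGE and 39.1% in telencephalon, and so few genes cannot show a difference. Aurka, the spindle pole kinase, had 1 shared peak, 26595 bp away in MGE and 26450 bp in telencephalon. Aurkb, the kinase of the chromosomal passenger complex, had 4 peaks in each list with 3 shared, the nearest 9431 bp below it in MGE and 9439 bp in telencephalon. Plk1 (polo-like kinase) had 2 MGE and 3 telencephalon peaks, all above the gene, with 2 shared at 19619 and 29388 bp in MGE and at 19618 and 29291 bp in telencephalon. Bub1, a kinase of the spindle checkpoint (chr2:127800197-127831859), had a shared peak 13599 bp above it in MGE and 13571 bp in telencephalon, besides the telencephalon peak near its start (chr2:127832847-127833183, 337 bp).

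**Figure D3:**
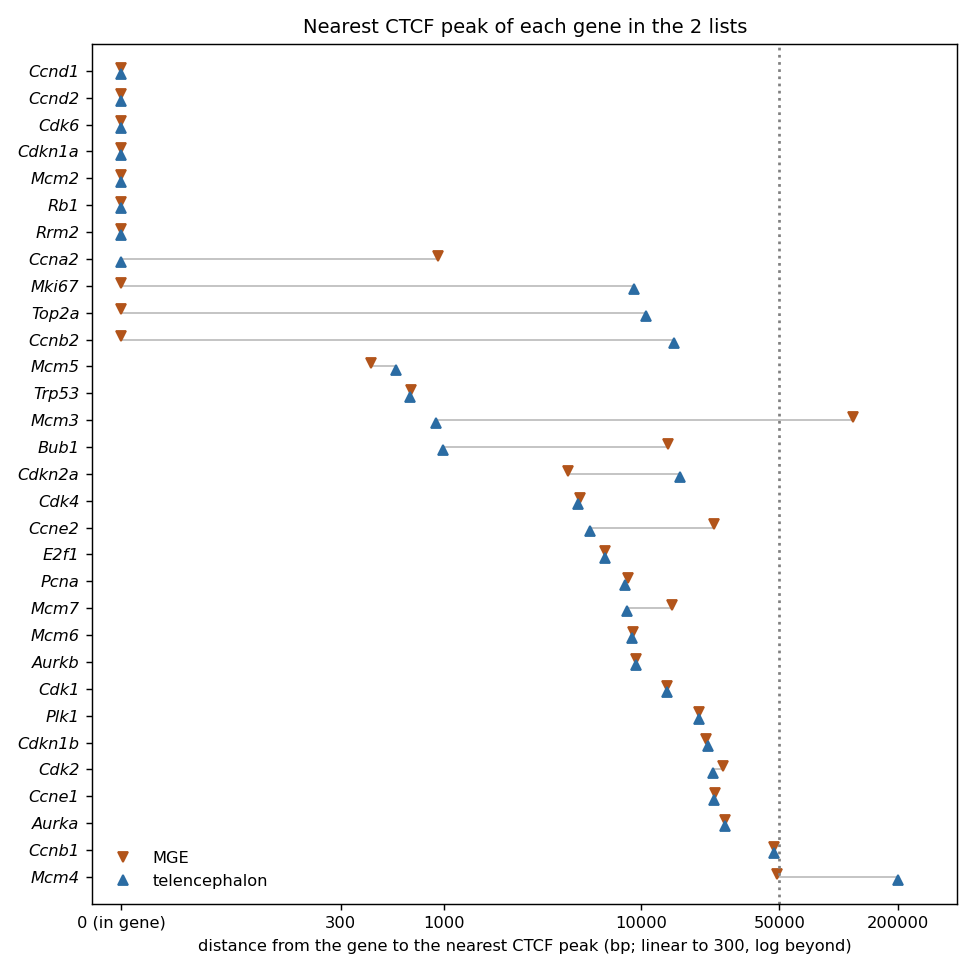
Distance in bp from each gene to its nearest CTCF peak in the MGE list (down-pointing) and the telencephalon list (up-pointing), on an axis linear to 300 bp and logarithmic beyond, with 0 for a peak in the gene and a dotted line at 50 kb. The triangles lie within 500 bp of each other for 19 of 31 genes, a count not made over all protein-coding genes. They are furthest apart for Mcm4 (48846 and 200829 bp) and Mcm3 (117946 and 916 bp).

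The nearest peaks of the lists lay at distances within 500 bp of each other for 19 of the 31 genes. Of these, 7 had peaks in the gene in both lists, 11 had nearest peaks outside the gene that overlapped, and Ccne1 had its nearest peaks on opposite sides. Median distances to the nearest peak were 6548 bp in MGE and 8299 bp in telencephalon. Neither the count of 19 nor these medians were computed over all protein-coding genes, so whether they are usual is unknown. Shared peaks on both sides within 50 kb were found for 11 of 31 genes in each list (35.5%, 19.2 to 54.6%), against 23.0% of protein-coding genes in the MGE list and 23.1% in the telencephalon list. Peaks on both sides, shared or not, were found for 13 of 31 genes in MGE (41.9%, 24.5 to 60.9%) and 15 of 31 in telencephalon (48.4%, 30.2 to 66.9%), against 30.3% and 44.2%.

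The 64 overlapping pairs at the cell cycle genes had a median distance of 55.5 bp between midpoints, against 47.5 bp over all 15042 pairs of the lists, and 48 of the 64 lay within 100 bp, against 81.1% of all pairs. The MGE peak was the wider in 26 pairs and the telencephalon peak in 38, while the telencephalon peak was the wider in 50.8% of all pairs. Shared peaks at these genes were 356 bp wide at the median in MGE and 382 bp in telencephalon, beside 345 and 346 bp over all shared peaks of each list. Unshared peaks were narrower, with medians of 281 bp in MGE and 279 bp in telencephalon, against 244 and 223 bp over all unshared peaks. Of 16 unshared MGE peaks 6 had the narrowest width of that list, 244 bp, and of 50 unshared telencephalon peaks 4 had the narrowest width, 150 bp. Over the whole lists, shared or not, 28.9% of MGE and 5.74% of telencephalon peaks had the narrowest width. The median of all unshared MGE peaks was itself 244 bp. Among the unshared peaks 1 of 16 in MGE and 3 of 50 in telencephalon lay within 1 kb of a peak of the other list. Their median distance to the other list was 13306 bp in MGE and 9198 bp in telencephalon. Neither these counts nor these distances were computed over all unshared peaks, so whether they are usual is unknown.

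**Figure D4:**
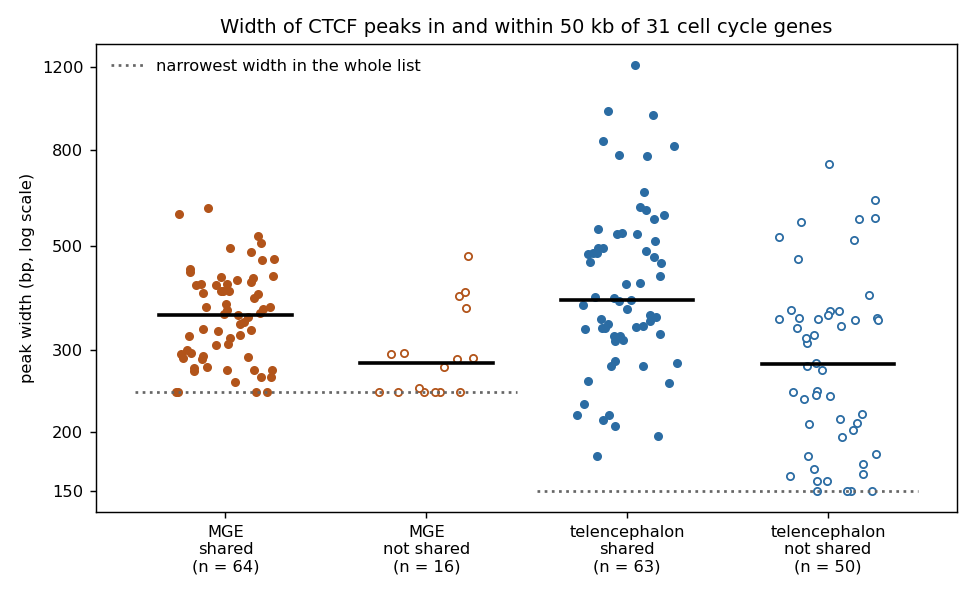
Width in bp, on a log axis, of the peaks in and within 50 kb of the 31 genes, by list and by overlap with the other list; points are peaks, black lines medians and dotted lines the narrowest width of the whole list (244 bp in MGE and 150 bp in telencephalon). Medians are 356 bp for shared and 281 bp for unshared MGE peaks, and 382 and 279 bp for telencephalon peaks.

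A wider set of 118 other genes of the same pathways was scored the same way. Of these, 12 of 118 had a gene-end peak in the MGE list (10.2%, 5.37 to 17.1%) and 27 of 118 had one in telencephalon (22.9%, 15.7 to 31.5%), beside the background of 12.1% and 19.3%. Both lists had one at 10 of these genes (8.47%, beside 10.5% of protein-coding genes). Among them were the inhibitor gene Cdkn2b, the p53 regulator Mdm2, the transcription factor gene Mycn, the cytokinesis motor Kif23, the kinetochore gene Nuf2, and the replication genes Fen1, Gins4, Rfc2 and Rfc3. Lin54 and Bub1b had one in the MGE list alone (1.69%, beside 1.58%), and 17 genes in the telencephalon list alone (14.4%, beside 8.79%). The widest of these 17 lay at Tk1 (639 bp), where it overlapped an MGE peak outside the 1 kb window, and the next at Cdkn2d (505 bp), Pold1 (476 bp) and Plk4 (472 bp), which had no MGE partner. By role, gene-end peaks were found for 5 of 47 replication genes in MGE and 11 of 47 in telencephalon, for 3 and 6 of 30 mitotic genes, for 4 and 7 of 25 inhibitors and G1 regulators, and for 0 and 3 of 16 cyclins and kinases. The widest window held a peak for 107 of 118 in MGE (90.7%, beside 80.3%) and 113 of 118 in telencephalon (95.8%, beside 82.8%), and a shared peak for 93 of 118 in each (78.8%, beside 68.2%). A gene-body peak was found for 36 of 118 in MGE (30.5%, beside 31.4%) and 54 of 118 in telencephalon (45.8%, beside 39.1%).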

How the data were processed

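Peaks were deposited as 1 BED list per CTCF library, and the input libraries were not analysed here. Per the submitters' processing notes, the tools of the authors were MACS2 2.1.1.20160309 and Bowtie2 2.3.2, on mm10. The sources used here do not give the calling threshold, control or filters, and a looser or stricter threshold changes how many peaks are listed and shared. Per the file headers and columns, the deposited values are peak positions with no score.

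Per the labels' protocols, sonication aimed at 500 bp, the input was 1 part in 25 of the chromatin, and library kits differed between tissues. Starts were made 1-based, and other sequences than chromosomes 1 to 19, X and Y were dropped. Gene positions came from RefSeq (GRCm38.p6, the coordinates of mm10), and promoter sequences from the same build. Overlaps were counted in Python 3.11.15 with numpy 2.4.6 and pandas 2.3.3, after the counting was checked on simulated peaks, and intervals came from scipy 1.17.1. Figures were drawn with matplotlib 3.10.9.

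The 31 genes and the 118 further pathway genes were chosen by name with earlier results of these data known. The rule named with positions the genes with a gene-end peak in either list, the widest peak, the most peaks in the widest window, no peak there in either list, or nearest peaks furthest apart between the lists. The other positions printed were chosen after their values were seen. The alternatives tried were other gene-end widths and flanks, peak midpoints, starts alone, stricter and looser overlap, subsets of peaks by width and all annotated genes as background.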

Additional observations from a re-analysis of the deposited data

How the results depend on the processing

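Across 4 measures and both lists, 31 of 38 alternative values met a loose rule (counts at most 1.5 times apart, shares within the reported interval). A further 6, the MGE gene counts under filters that remove no MGE peak, could not change. The rule let through large moves. In telencephalon it passed 20 of 31 genes with a 10 kb flank, against 30 of 31 with 50 kb. In MGE it passed 23 of 31 with a 20 kb flank, also against 30. Both shares lie below the reported interval, which starts at 83.3%. Starts alone were counted over 24 genes and set against counts over 31. Gene ends were the most dependent on their width. With 500 bp the count fell to 2 of 31 genes in MGE (Mcm5 and Rrm2) and 1 of 31 in telencephalon (Rrm2), against 8.69% and 14.5% of protein-coding genes. With 5 kb it was 14 in MGE (45.2%, 27.3 to 64.0%, against 29.6%) and 12 in telencephalon (38.7%, 21.8 to 57.8%, against 40.9%). Both of these intervals cover the background. With a flank of 10 kb, 19 of 31 genes had a peak in the gene or flank in MGE (61.3%, against 51.3% of protein-coding genes) and 20 of 31 in telencephalon (64.5%, against 61.3%). Overlap was also required to cover at least 50% of the width of both peaks. The shared share was then 67.5% in MGE and 47.8% in telencephalon. That rule was not applied to the peaks near all protein-coding genes. Keeping only peaks at least as wide as the narrowest MGE peak gave 71.2% in MGE and 66.7% in telencephalon. Of such peaks within 50 kb of any protein-coding gene, 59.2% in MGE and 66.4% in telencephalon were shared. With all annotated genes as background, gene-end shares were 8.34% in MGE and 13.0% in telencephalon, and shares within 50 kb were 71.1% and 72.7%. The cause of these changes beyond the window or filter itself was not tested. No paired analysis was possible because each tissue had 1 CTCF library, and no library could be left out. Depth is unknown, so a gene without a listed peak is not shown to lack CTCF.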
